A study of Mus musculus with 38 samples.

Results

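A set of 10 genes that help the gut clear drugs and other foreign compounds was followed in intestinal epithelium of vitamin D deficient mice: 4 efflux pump genes (Abcb1a, Abcg2, Abcc2 and Abcc3), the glucuronosyltransferase genes Ugt1a1 and Ugt1a6a, the sulfotransferase genes Sult1b1 and Sult1d1, and the carboxylesterase genes Ces2a and Ces2c. They were chosen by symbol, and all 10 were found among the 21441 genes of each expression table. The mice were wild-type C57BL6/J animals, all vitamin D deficient, whose age the labels give as 10 to 13.3 weeks in one field and 12 to 14 weeks in another. Treated mice received an intraperitoneal injection of 10 ng per g of body weight of 1,25(OH)2D3 (calcitriol, the active hormone), and control mice 0.1 ml of its vehicle, a mixture of propylene glycol and ethanol. Tissue was taken 4 h later. RNA-seq libraries were made from villi (7 vitamin D and 6 vehicle), from crypts of the same proximal small intestine (6 and 6) and from scraped colon epithelium (7 and 6), 38 libraries in all. The labels do not tell how many mice went into each library, and p-values therefore rest on the spread between libraries, which may be partly technical.

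Drug clearance by the gut wall works in steps. Carboxylesterases of the endoplasmic reticulum cut ester drugs and prodrugs, UDP-glucuronosyltransferases attach glucuronic acid, and cytosolic sulfotransferases attach sulfate. ATP-binding cassette pumps then export parent drugs and conjugates, through the apical membrane to the lumen (Abcb1a, Abcg2 and Abcc2) or through the basolateral membrane to the blood (Abcc3). Several of these genes are textbook targets of the xenobiotic receptors PXR and CAR, which share DNA half-sites with the vitamin D receptor.

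In the test of vitamin D against vehicle without pairing, none of the 10 genes passed in any of the 3 tissues. Equally numbered libraries were taken as pairs in villi and crypts, where every pair correlated above 0.1. In each of these tissues 3 of 6 vehicle libraries correlated best with the vitamin D library of equal number. With these pairs Ces2a was higher with vitamin D and passed in both (adjusted p = 0.00390 and 0.0392), where 3.51% and 4.14% of all genes passed. Vitamin D villi replicate 7, the lowest of its group for Ces2a (86.4 FPKM), has no partner by these numbers and does not enter that estimate. The pairs were read from the numbers and from correlations in these same data. In colon, where equal numbers were not taken as pairs, no member passed with the block. Without pairing, limma called 240 of 9706 genes tested in villi (2.47%), 157 of 10733 in crypts (1.46%) and 95 of 11540 in colon (0.823%). For each of the 10 genes the treatment groups overlapped in every tissue; 1.92% of all genes in villi, 1.75% in crypts and 0.867% in colon had groups without overlap. The members with an unadjusted p under 0.05 were Abcc2 and Ces2a, both higher with vitamin D in villi, Abcg2, lower in crypts, and Ces2a again in colon. The steepest regional differences were those of Abcc2, which averaged at most 4.12 FPKM in colon and over 40 FPKM in crypts and villi, and Ugt1a6a, which averaged over 50 FPKM in colon and at most 5.24 FPKM elsewhere.

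Libraries held 13.8 M to 17.5 M reads each (median 15.8 M), as read from the steps between low values. Cyp24a1, the hydroxylase that degrades the hormone and the usual sign of its action, stood between 403 and 4651 FPKM in every vitamin D library and at most at 64.7 FPKM in every vehicle library. FPKM are fragments scaled by transcript length and library size. By the sex-linked genes Xist and Ddx3y, 14 libraries had a male and 24 a female pattern, although the labels describe pooled sexes. In villi the male pattern was seen in vitamin D replicates 4, 5 and 7 and in vehicle replicates 4, 5 and 6; in crypts it was seen in replicate 4 of both groups; and in colon it was seen in vitamin D replicates 4, 6 and 7 and in vehicle replicates 4, 5 and 6. Mesenchyme and muscle markers summed to 1381 and 4152 FPKM in vitamin D colon replicates 1 and 2, and to at most 245 FPKM in the other colon libraries. The absorptive enterocyte markers (10 genes) summed to between 36569 and 62544 FPKM in villi and to between 6203 and 50304 FPKM in crypts, so some crypt libraries reached the level of villi.

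Some of these genes cannot be counted cleanly. Mouse Ugt1a transcripts each join a first exon of their own to the same downstream exons, so only reads from the first exon tell Ugt1a1 from Ugt1a6a. The joint in the GENCODE M21 transcripts is shown to make this visible, with the first 30 shared bases in capitals:
Ugt1a1: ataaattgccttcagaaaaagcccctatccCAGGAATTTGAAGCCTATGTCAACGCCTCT
Ugt1a6a: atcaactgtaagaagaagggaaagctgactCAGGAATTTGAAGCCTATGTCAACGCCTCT
The capitals open a run of 1314 identical bases that ends both transcripts. Of the 31-base words in Ugt1a1-201, 58.5% also occurred in protein-coding transcripts of other genes, and of those in Ugt1a6a-201, 97.8%, mostly in a transcript annotated to Ugt1a7c. Shared words made up 23.2% of Abcb1a-201 (mainly with its copy Abcb1b), 20.1% of Ces2c-201 (mainly with Ces2b) and 9.48% of Ces2a-201. Ces2a-201 and Ces2c-201 were identical at 81.9% of aligned bases. For Abcc2, Abcc3, Abcg2, Sult1b1 and Sult1d1 the share was 0.550% or less. Overlap with transcripts that are not protein-coding was not searched for any member. The split of reads between members of the Ugt1a, Ces2 and Abcb1 families is therefore uncertain, and Ugt1a6a is the least certain of the 10.

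The 250 bases before the annotated start are shown for Abcc2 and Ces2a, the members with the smallest p in villi, and for Ces2c, the neighbouring paralog of Ces2a, with nuclear receptor half-sites (AGGTCA, the variant GGGTCA, the variant AGTTCA or the variant GGTTCA, on either strand) in capitals. Sequences are from RefSeq, build GRCm38.p6, for Abcc2 at chr19:43782058-43782307, Ces2a at chr8:104733753-104734002 and Ces2c at chr8:104846818-104847067, all on the plus strand:
Abcc2: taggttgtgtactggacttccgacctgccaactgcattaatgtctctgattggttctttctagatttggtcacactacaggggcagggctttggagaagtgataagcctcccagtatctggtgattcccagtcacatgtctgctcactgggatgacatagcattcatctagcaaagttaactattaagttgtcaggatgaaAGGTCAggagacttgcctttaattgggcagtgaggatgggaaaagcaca
Ces2a: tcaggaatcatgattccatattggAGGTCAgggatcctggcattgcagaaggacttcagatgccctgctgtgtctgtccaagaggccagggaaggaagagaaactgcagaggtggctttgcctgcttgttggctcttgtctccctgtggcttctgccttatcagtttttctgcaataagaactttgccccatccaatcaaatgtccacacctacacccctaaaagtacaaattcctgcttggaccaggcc
Ces2c: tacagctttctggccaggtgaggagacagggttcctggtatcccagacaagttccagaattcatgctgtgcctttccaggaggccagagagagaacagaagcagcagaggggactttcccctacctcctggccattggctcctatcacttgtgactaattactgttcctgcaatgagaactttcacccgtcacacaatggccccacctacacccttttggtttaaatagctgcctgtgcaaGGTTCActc
Each held 1 half-site: AGGTCA at position -49 from the start of Abcc2, AGGTCA at -226 from that of Ces2a, and GGTTCA at -9 from that of Ces2c. Among 32851 promoters of the same length, 38.6% held at least 1 of the 4 half-sites and 14.0% held AGGTCA, so a match of this kind is common. Promoter entries were matched for 9 of the 10 members. A match is a description of letters and says nothing about binding.

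**Figure D1:**
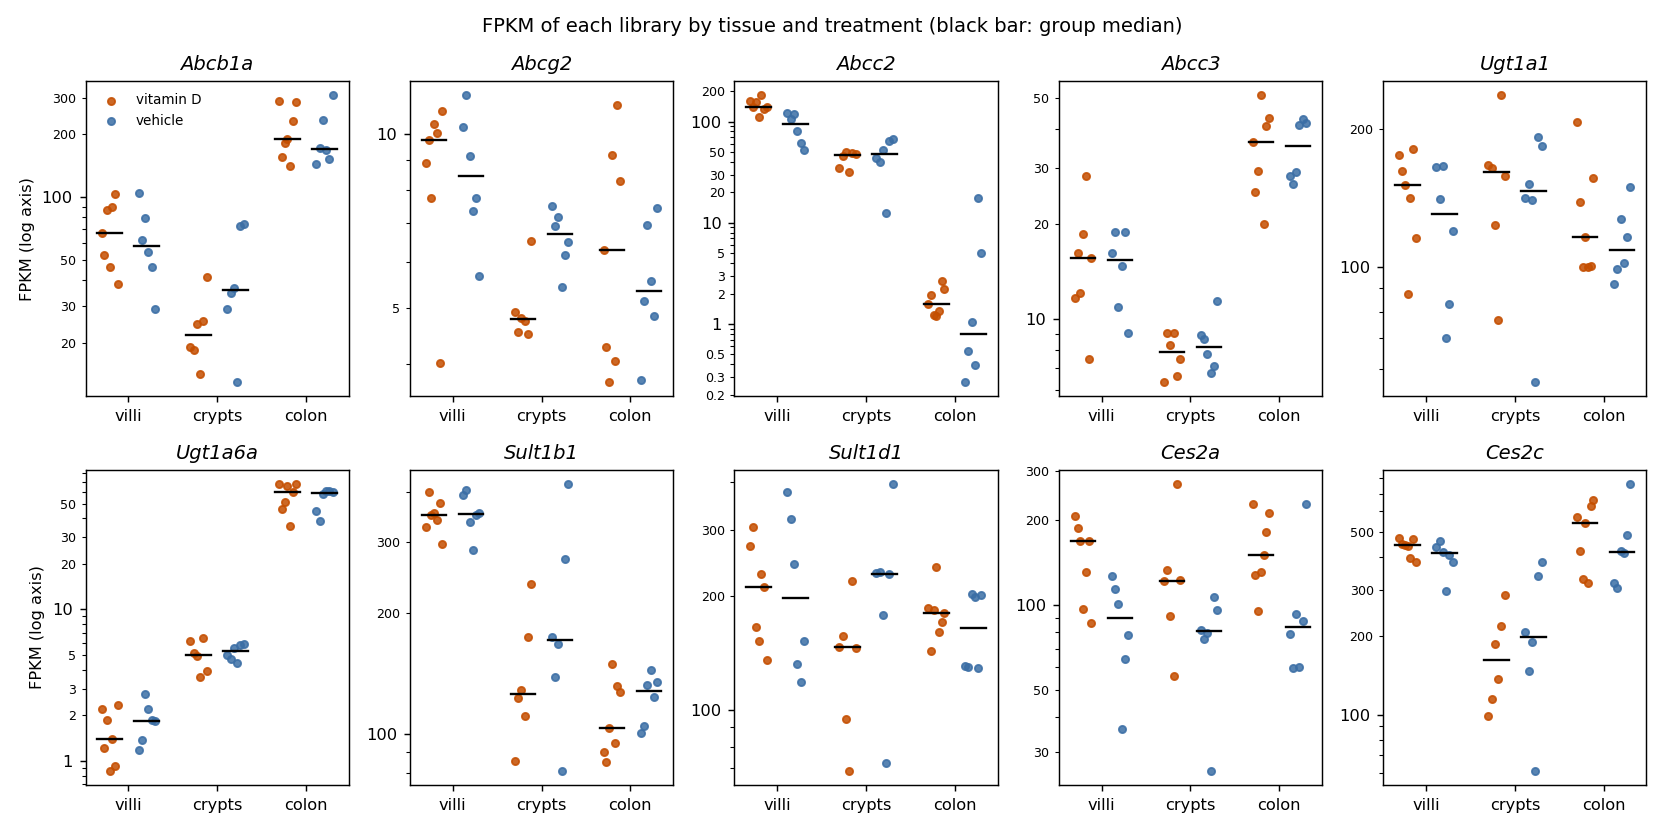
FPKM (log axis) of the 10 genes in every library, by tissue, with vitamin D left of vehicle; a point is a library and a black bar the group median. Abcc2 stands at 17.5 FPKM or less in every colon library and above 50 FPKM in every villus library, and Ugt1a6a shows the opposite order.

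Among the apical pumps, Abcc2 (Mrp2), which exports glucuronide, sulfate and glutathione conjugates, had the smallest p of the 10 in villi. Its level was 111 FPKM at the lowest, 140 at the median and 182 at the highest in vitamin D villi, against 53.0, 93.8 and 121 FPKM in vehicle villi. The 2 groups overlapped only because vitamin D replicate 4 lay below vehicle replicates 1 and 3. Means were 146 ± 22.6 FPKM with vitamin D (SD, n = 7) and 90.5 ± 29.8 with vehicle (n = 6), a log2 fold change of 0.74 ± 0.20 (SE) on log2(FPKM + 0.5), with an adjusted p of 0.0663. All 6 pairs of equally numbered libraries were higher with vitamin D, as 11.4% of the genes tested in villi went one way in all pairs. With the pairs as a block the adjusted p was 0.0730, and without vehicle replicate 1 or 3 it was 0.0421 and 0.0423, past the threshold, where 2.1% and 2.24% of genes passed. In the authors' deposited table, which rests on another method, Abcc2 passed at a log2 fold change of 0.69 (adjusted p = 0.0201), as 3.6% of its genes did in either direction. The labels' descriptions name libraries in 2 styles, plain for replicates 1 to 4 of each group and with a number prefix or hyphens for the rest. With name style as a covariate Abcc2 passed (adjusted p = 0.0332; 3.39% of genes passed). Within the plain-named libraries, 4 against 4, the log2 fold change was 0.41 (adjusted p = 0.449). Within each sex pattern the treatment groups did not overlap, for Abcc2 and for Ces2a, as for 3.03% of all genes tested.

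In crypts Abcc2 averaged 43.4 ± 7.98 FPKM with vitamin D and 46.9 ± 20.2 with vehicle (SD, n = 6 each), and the vitamin D values lay within the vehicle range. The log2 fold change was 0.04 ± 0.34, with a 95% interval of -0.69 to 0.77. Colon levels were low: 1.20 FPKM at the lowest, 1.58 at the median and 2.65 at the highest in vitamin D colon, against 0.268, 0.795 and 17.5 FPKM in vehicle colon. The vehicle values split into 4 libraries at 1.05 FPKM or less and vehicle replicates 5 and 6 at 17.5 and 5.01 FPKM. Those replicates also had the highest levels of small intestinal transcripts among the colon libraries, with Fabp1 at 724 and 220 FPKM and Apoa1 at 528 and 358 FPKM, while vehicle replicates 1 to 4 had at most 9.64 FPKM of either. Vitamin D replicates 6 and 7 carried Apoa1 at 277 and 241 FPKM. The 10 enterocyte markers summed to 674 to 1770 FPKM in vitamin D colon and to 569 to 3663 FPKM in vehicle colon, and Gata4, which marks the proximal intestine, stood at 11.2 FPKM in vehicle replicate 5 and at 0 in vehicle replicate 6. The part of these transcripts in the Abcc2 values was not tested. Over all libraries the log2 fold change in colon was 0.00 ± 0.63, and the authors' deposited table gives -1.24 ± 0.76 (adjusted p = 0.596). Without vehicle replicates 5 and 6, a choice made after seeing the data, it was 1.09 ± 0.24 (adjusted p = 0.0720).

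Abcg2, the breast cancer resistance protein, which returns sulfate conjugates and many drugs to the lumen, was the only member with an unadjusted p under 0.05 in crypts, as 15.3% of all genes were. It stood at 4.51 FPKM at the lowest, 4.78 at the median and 6.52 at the highest in vitamin D crypts, against 5.44, 6.72 and 7.49 FPKM in vehicle crypts. In all, 5 of 6 vitamin D libraries lay below every vehicle library, and replicate 6, at 6.52 FPKM, lay among them. The log2 fold change was -0.37 ± 0.10 (adjusted p = 0.116), and -0.40 with an adjusted p of 0.0368 in the authors' deposited table, where 4.28% of genes passed. The deposited mean for Abcg2 was 217 normalised counts per crypt library, the lowest of the 10 there. Its standard error was still the smallest of the 10 in crypts. Without vitamin D replicate 6 the adjusted p was 0.0317 (1.82% of genes passed), and without vehicle replicate 4 it was 0.0230 (9.92% of genes passed). Without replicate 4 of both groups, a choice made after seeing the data, it was 0.0459 (7.4% of genes passed). Abcg2 averaged 8.83 ± 2.36 FPKM with vitamin D and 8.64 ± 2.15 with vehicle in villi, and 6.71 ± 2.90 FPKM with vitamin D and 5.62 ± 1.38 with vehicle in colon. Its log2 fold changes there were 0.01 ± 0.21 and 0.17 ± 0.25.

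Abcb1a encodes the P-glycoprotein that dominates in the mouse gut and keeps many lipophilic drugs out of enterocytes. In crypts it had 14.3 FPKM at the lowest, 21.8 at the median and 41.3 at the highest with vitamin D, against 13.0, 35.7 and 74.4 FPKM with vehicle. The 2 groups overlapped fully, and the log2 fold change of -0.71 ± 0.38 did not pass (adjusted p = 0.408; 0.0678 with the pairs as a block). With sex pattern and name style as covariates, a fit added after seeing the data, it was lower with vitamin D and passed (adjusted p = 0.0368), as did Abcg2 and Ces2a, against 7.81% of all genes. The values moved with the enterocyte markers: vehicle replicates 5 and 6, with 72.5 and 74.4 FPKM of Abcb1a, had enterocyte marker sums of 41869 and 50304 FPKM, and vehicle replicate 4, with 13.0 FPKM, had 6203 FPKM. In bulk tissue fewer cells of a type and less RNA per cell cannot be told apart, and the part of these cells in the difference was not tested. Without vehicle replicates 5 and 6 the log2 fold change was -0.23 ± 0.33. In villi it was 0.17 ± 0.29 and in colon 0.10 ± 0.21, where means were 210 ± 59.1 FPKM with vitamin D and 197 ± 63.1 with vehicle.

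For Abcc3 (Mrp3), the basolateral exporter of glucuronides, no difference by treatment passed. Its log2 fold changes were 0.04 ± 0.26 in villi, -0.10 ± 0.13 in crypts and -0.03 ± 0.21 in colon. The 95% intervals, -0.52 to 0.59, -0.38 to 0.19 and -0.47 to 0.42, do not exclude a difference of such a size in either direction. A difference by sex pattern was larger in colon: 0.65 ± 0.12 on the log2 scale, male minus female with treatment as a covariate (adjusted p = 0.0193), where 4.51% of genes passed. With name style added it was 0.80 ± 0.12 (adjusted p = 0.0220), against 0.373%. Sult1b1 passed in the first of these fits only, at 0.41 ± 0.09 (adjusted p = 0.0312). Small intestinal transcripts were high in only some of the male-pattern colon libraries. In vitamin D 6 and 7 and vehicle 5 and 6, Apoa1 stood between 241 and 528 FPKM, against at most 29.2 FPKM in every other colon library. The other male-pattern colon libraries, vitamin D 4 and vehicle 4, had Apoa1 at 3.22 and 3.59 FPKM and Abcc3 at 51.0 and 41.2 FPKM. The part of small intestinal transcripts in these differences was not tested.

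**Figure D2:**
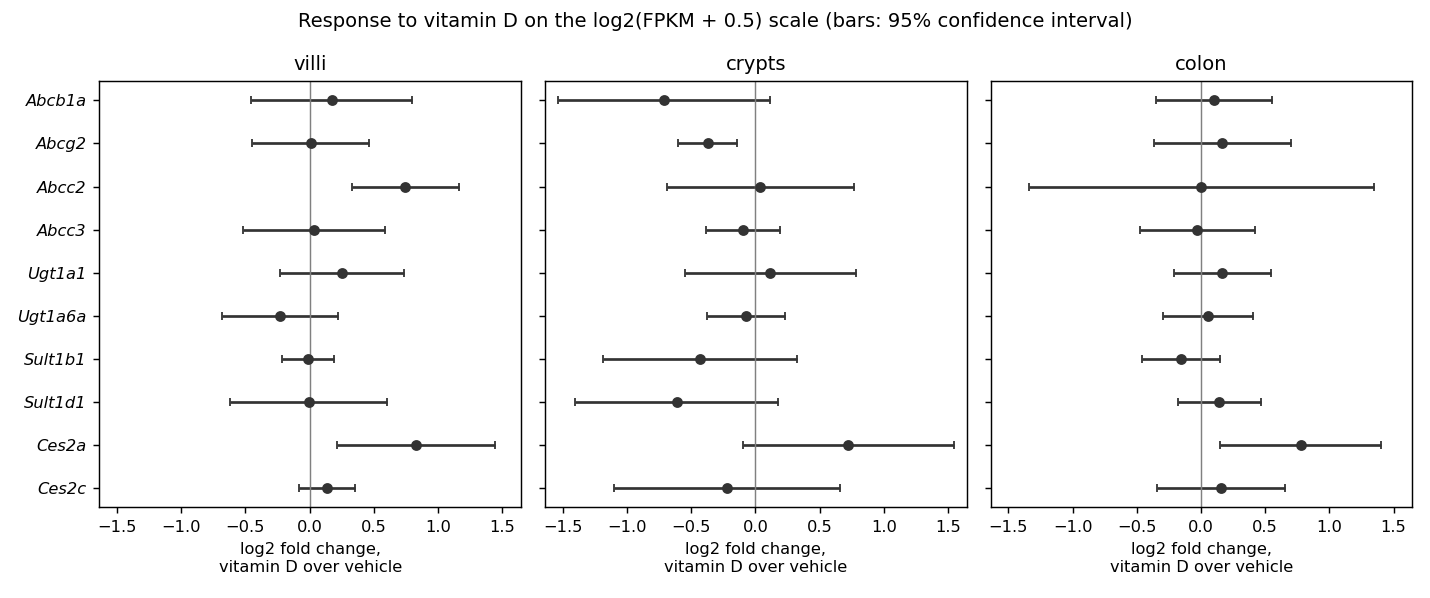
Log2 fold change of vitamin D over vehicle with its 95% confidence interval, on log2(FPKM + 0.5), for the 10 genes in villi, crypts and colon. Abcc2 in villi, Abcg2 in crypts, and Ces2a in villi and colon have intervals that exclude 0 before adjustment for the number of genes, and none passed after it in this fit without pairing.

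Ces2a and Ces2c encode intestinal carboxylesterases of the family that activates ester prodrugs and hydrolyses acylglycerols. Ces2a had log2 fold changes between 0.72 and 0.83 in all 3 tissues, and its unadjusted p was under 0.05 in villi and colon, as for 12.2% and 8.05% of all genes there. In villi it ranged over 86.4 FPKM at the lowest, 168 at the median and 207 at the highest with vitamin D, against 36.1, 89.5 and 127 FPKM with vehicle. Vitamin D replicates 4 and 7 were the low ones and lay within the vehicle range; both had the male sex pattern. Means were 150 ± 45.9 FPKM with vitamin D (SD, n = 7) and 86.8 ± 33.8 with vehicle (n = 6). The log2 fold change was 0.83 ± 0.29 (adjusted p = 0.208). Paneth cell markers, as a sign of crypt cells, summed to 147 to 1048 FPKM in vitamin D villi and to 89.7 to 3147 FPKM in vehicle villi; without vehicle replicate 4, which had the most, it was 0.60 ± 0.24 (adjusted p = 0.324), and that of Abcc2 0.73 ± 0.21 (adjusted p = 0.126). With the pairs as a block the log2 fold change of Ces2a was 0.95 ± 0.11 and passed (adjusted p = 0.00390). In that fit 3.51% of genes passed in either direction. Vitamin D replicate 7, the lowest of its group at 86.4 FPKM, has no partner by title number and does not enter that estimate. The library names pair it with vehicle replicate 6 and leave vitamin D replicate 6 without a partner. With those pairs the log2 fold change of Ces2a was 0.79 ± 0.15 (adjusted p = 0.0274, where 3.66% of genes passed).

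The sex pattern of a library moved with Ces2a as well. Male-pattern villi averaged 105 FPKM with vitamin D and 59.6 FPKM with vehicle (n = 3 each), and female-pattern villi averaged 183 FPKM with vitamin D (n = 4) and 114 FPKM with vehicle (n = 3). In the male pattern the values lay between 86.4 and 131 FPKM with vitamin D and between 36.1 and 78.5 FPKM with vehicle, and in the female pattern between 168 and 207 FPKM with vitamin D and between 101 and 127 FPKM with vehicle. Male minus female, with treatment as a covariate, the log2 difference was -0.90 ± 0.16 for Ces2a (adjusted p = 0.0292) and -0.68 ± 0.14 for Ugt1a1 (adjusted p = 0.0393), as 0.865% of genes passed. With name style added, both genes passed again (-1.05 ± 0.18 and -0.87 ± 0.13), as 3.01% of genes did. With sex pattern as a covariate, the vitamin D test passed for Ces2a (log2 fold change 0.76 ± 0.16, adjusted p = 0.0196) and for Abcc2 (0.71 ± 0.16, adjusted p = 0.0297), against a background of 3.01%.

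In crypts Ces2a had 55.8 FPKM at the lowest, 122 at the median and 269 at the highest with vitamin D, against 25.7, 80.7 and 107 FPKM with vehicle. Replicate 4, the one male-pattern pair, was the lowest of both groups, and vitamin D replicate 5 stood alone at 269 FPKM. The log2 fold change was 0.72 ± 0.38 (adjusted p = 0.393), and 0.72 ± 0.15 with the pairs as a block, where it passed (adjusted p = 0.0392; 4.14% of genes passed). All 6 pairs were higher with vitamin D in crypts and in villi. In the crypt libraries with the highest enterocyte marker sums, vehicle replicates 5 and 6, Ces2a stood at 107 and 96.2 FPKM. These were its highest vehicle values, and they lay below 4 of 6 vitamin D libraries. Its lowest vehicle value, 25.7 FPKM, was in replicate 4, which had the lowest marker sum. The part of enterocytes in these values was not tested. Male minus female, the log2 difference in crypts was -1.52 ± 0.29 for Ces2a (adjusted p = 0.0479) and -1.30 ± 0.20 for Ugt1a1 (adjusted p = 0.0194), as 0.494% of genes passed. With name style added, Ces2a, Ugt1a1 and Sult1d1 (-1.22 ± 0.26, adjusted p = 0.0470) passed, as 1.6% of genes did. The sex pattern there cannot be told apart from replicate 4, whose vehicle library also had the lowest enterocyte marker sum.

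In colon Ces2a had 95.1 FPKM at the lowest, 151 at the median and 228 at the highest with vitamin D, against 59.8, 83.4 and 229 FPKM with vehicle. Of the vehicle libraries, 5 of 6 lay below every vitamin D library, and vehicle replicate 6 lay above them all. The log2 fold change was 0.78 ± 0.29 (adjusted p = 0.418). Without that library it was 1.05 ± 0.21 and passed (adjusted p = 0.0360), where 0.771% of genes passed. Vehicle replicate 6 also had the highest Cyp24a1 of the vehicle colon libraries, 64.7 FPKM beside 5.38 FPKM or less in the others. In villi, vehicle replicate 6 had Cyp24a1 at 62.2 FPKM and Ces2a at 78.5 FPKM, below the vehicle median of 89.5 FPKM. Vitamin D colon replicate 7 had the lowest Cyp24a1 of its group, 403 FPKM, and Ces2a at 212 FPKM. A link between the 2 genes was not tested. Without vehicle colon replicates 5 and 6, the libraries with the most small intestinal transcripts, the log2 fold change of Ces2a was 1.10 ± 0.23 (adjusted p = 0.0580). Without vitamin D colon replicates 1 and 2, those with the most muscle transcripts, it was 0.72 ± 0.32 (adjusted p = 0.706). In the same colon libraries Ces2c averaged 495 ± 139 FPKM with vitamin D and 451 ± 167 with vehicle, with a log2 fold change of 0.15 ± 0.23. In villi that of Ces2c was 0.14 ± 0.10, with a 95% interval of -0.08 to 0.35, and in crypts it was -0.22 ± 0.41. Ces2c was the most abundant of the 10 in villi and colon by FPKM, which is per length.

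**Figure D3:**
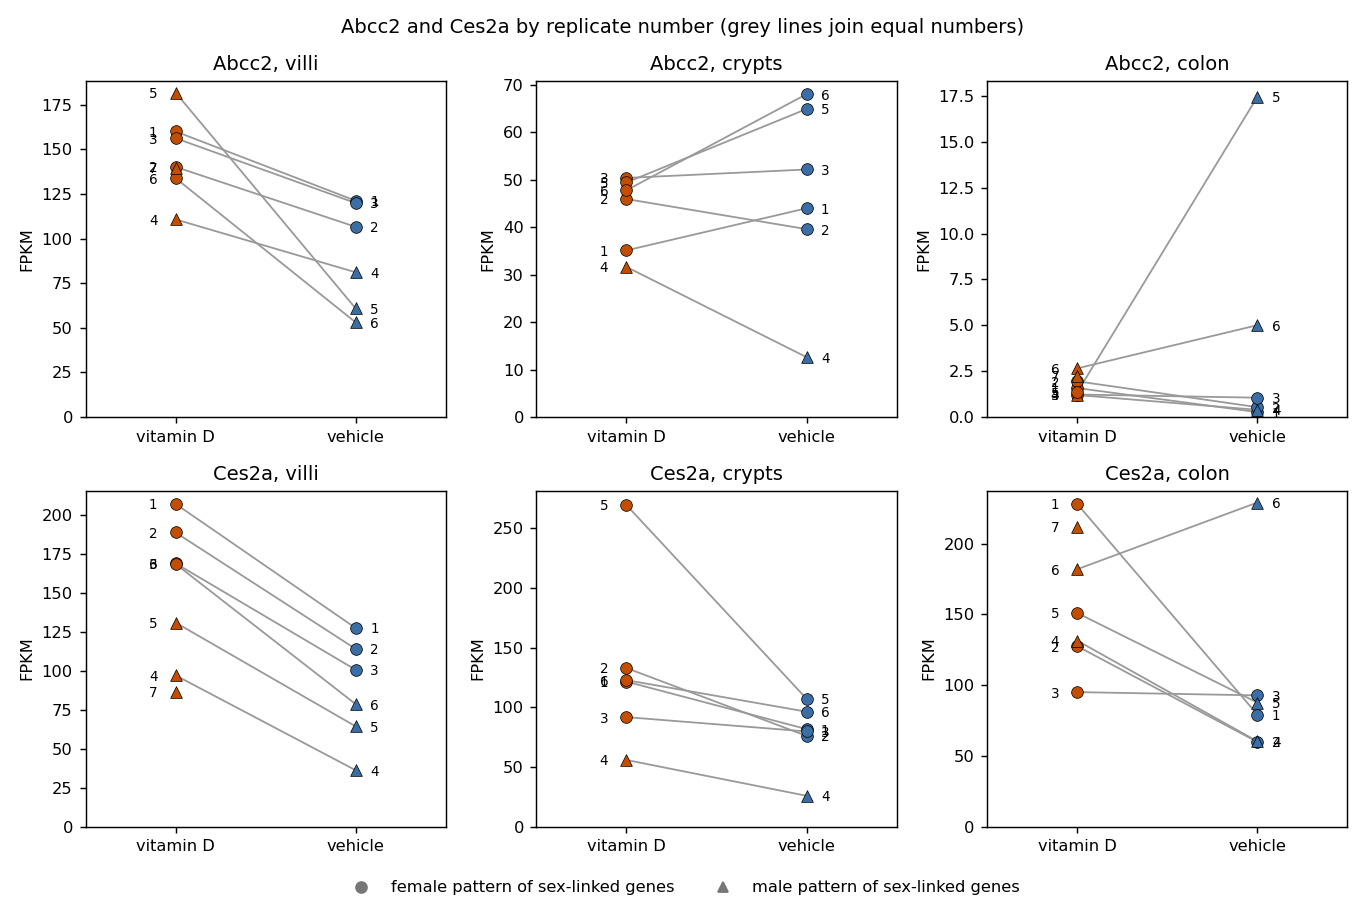
FPKM of Abcc2 and Ces2a in villi, crypts and colon, vitamin D left of vehicle, with grey lines joining libraries of equal replicate number and the marker shape giving the pattern of sex-linked genes. Every line of Ces2a in villi and crypts and of Abcc2 in villi is higher at its vitamin D end, and in colon vehicle replicate 6 (229 FPKM of Ces2a) and vehicle replicate 5 (17.5 FPKM of Abcc2) stand above the rest of their group.

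Of the glucuronosyltransferase genes, Ugt1a1, whose product conjugates bilirubin and many drugs, did not pass the vitamin D test in any tissue. It averaged 145 ± 33.4 FPKM with vitamin D and 124 ± 40.8 with vehicle in villi, 154 ± 52.8 with vitamin D and 144 ± 48.2 with vehicle in crypts, and 131 ± 39.8 with vitamin D and 114 ± 21.3 with vehicle in colon. The log2 fold changes were 0.25 ± 0.23, 0.12 ± 0.31 and 0.17 ± 0.18. Ugt1a1 varied with Ces2a from library to library: over the 38 libraries, centred on each tissue's mean, Pearson's r was 0.831, the highest of all genes with Ces2a. This is a description over libraries that share tissue, sex pattern and pairing.

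Ugt1a6a, known for conjugating planar phenols, averaged 1.55 ± 0.60 FPKM with vitamin D and 1.87 ± 0.58 with vehicle in villi, and 5.03 ± 1.18 with vitamin D and 5.24 ± 0.61 with vehicle in crypts. In colon it averaged 56.2 ± 12.2 FPKM with vitamin D and 53.6 ± 9.50 with vehicle. Its log2 fold changes were -0.23 ± 0.21, -0.07 ± 0.14 and 0.05 ± 0.16, and no tissue passed. Behind the villus values stood a deposited mean of 86.2 normalised counts per library. Summed over the 8 Ugt1a rows in the tables, which depends less on how reads were split among them, the level with vitamin D was 332 ± 48.3 FPKM in villi, 301 ± 56.3 in crypts and 375 ± 76.3 in colon, and with vehicle 314 ± 62.2, 326 ± 77.7 and 367 ± 49.9. Ugt1a7c made up the larger part of what Ugt1a1 left, at 183 ± 27.8 FPKM in vitamin D villi and 184 ± 27.2 in vehicle villi.

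The sulfotransferase Sult1b1, which sulfates thyroid hormones and phenols, had the smallest standard error in villi, with means of 349 ± 33.4 FPKM with vitamin D and 354 ± 41.8 with vehicle (log2 fold change -0.02 ± 0.09, 95% interval -0.22 to 0.19). In crypts it spread over 85.8 to 235 FPKM with vitamin D and 81.0 to 418 FPKM with vehicle, and within each group the library with the lowest enterocyte marker sum had the lowest value and that with the highest sum the highest. Sult1d1, which sulfates catecholamines in mice, had 69.1 FPKM at the lowest, 146 at the median and 219 at the highest in vitamin D crypts, against 72.3, 229 and 396 FPKM in vehicle crypts. It was lower with vitamin D in all 6 pairs, as 12.7% of genes went one way in all crypt pairs. Its log2 fold change of -0.61 ± 0.36 did not pass, with or without the pairs as a block (adjusted p = 0.0915 and 0.453). In colon both stayed within 0.16 of 0 on the log2 scale.

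Several members moved with the enterocyte markers in crypts, which summed to 7238 to 30247 FPKM with vitamin D and 6203 to 50304 FPKM with vehicle. All 10 markers were measured; the middle of their log2 fold changes was -0.56, with 9 of 10 below 0 and none called. Abcb1a, Ces2c and Sult1b1 each had their highest crypt values in vehicle replicates 5 and 6 and their lowest vehicle value in replicate 4. Among the vehicle libraries alone, Ces2a was also highest in replicates 5 and 6 and lowest in replicate 4. Ces2c stood at 340 and 382 FPKM in vehicle replicates 5 and 6 and at 61.0 FPKM in vehicle replicate 4. Without vehicle replicates 5 and 6 the log2 fold change of Ces2c in crypts was 0.24 ± 0.38, that of Sult1b1 0.01 ± 0.29 and that of Abcg2 -0.40 ± 0.12.

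**Figure D4:**
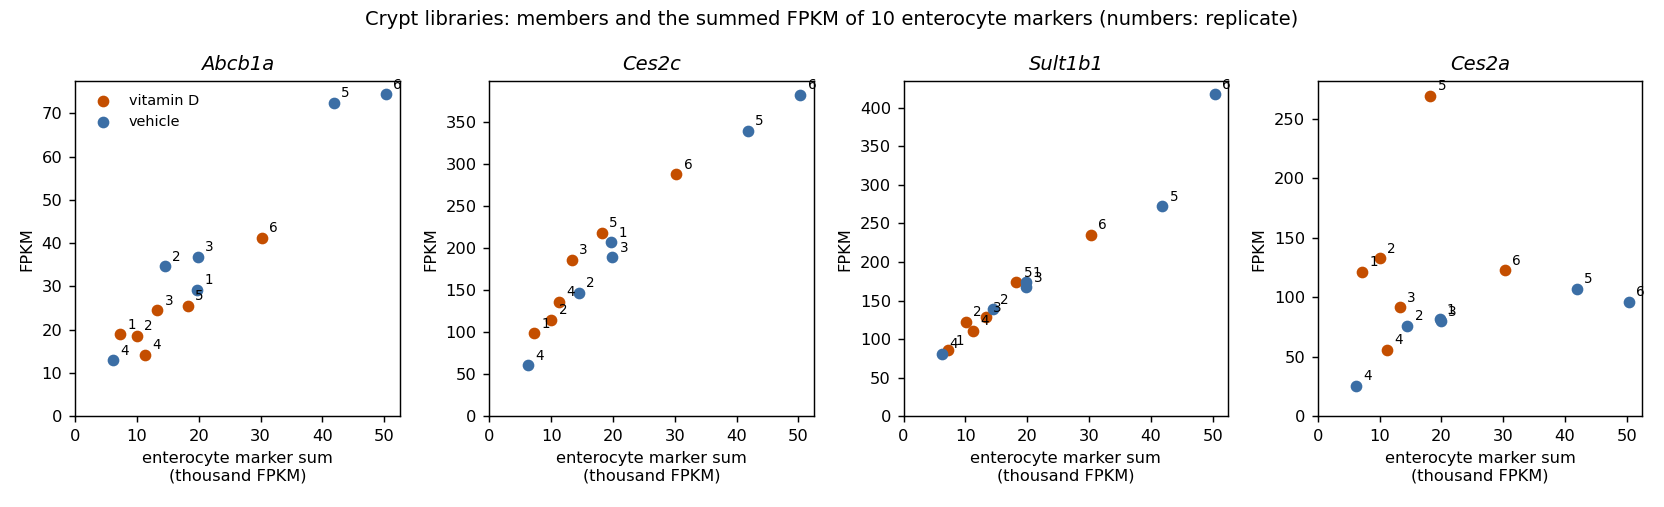
FPKM of Abcb1a, Ces2c, Sult1b1 and Ces2a in each crypt library against the summed FPKM of 10 absorptive enterocyte markers (scaled as marked on the axis), vitamin D in orange and vehicle in blue, with replicate numbers. Vehicle replicates 5 and 6 (41869 and 50304 FPKM of markers) hold the highest values of Abcb1a, Ces2c and Sult1b1, and the highest vehicle values of Ces2a. The highest Ces2a value of all, 269 FPKM, is in vitamin D replicate 5.

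The response of a gene was also set against itself in another tissue, in 1 fit over the 38 libraries. That fit treated libraries of different tissues as independent. Tissues may share mice, and the standard errors and p-values leave out any such pairing. No member passed the test of a difference in response for crypts over villi, colon over villi or colon over crypts, and none had an unadjusted p under 0.05, as 6.07%, 8.39% and 4.03% of all genes did. The background of calls was 0.0322%, 0.494% and 0.0644%. With equal numbers as a block no member passed either. That block was set in all 3 tissues, also in colon, where equal numbers were not taken as pairs. For crypts over villi 3 members had an unadjusted p under 0.05, as 14.1% of all genes did. They were Abcb1a (adjusted p = 0.306), Sult1d1 (adjusted p = 0.313) and Sult1b1 (adjusted p = 0.331). For colon over crypts 1 member did, Sult1d1 (adjusted p = 0.308), as did 9.86% of all genes. With name style as a covariate Abcb1a alone was under 0.05 before adjustment in both (adjusted p = 0.477 and 0.687), where 10.3% and 7.23% of genes were. The largest difference was that of Abcb1a in crypts over villi, -0.88 ± 0.45 on the log2 scale (adjusted p = 0.728). For Ces2a the differences in response were -0.10 ± 0.49 for crypts over villi, -0.05 ± 0.48 for colon over villi and 0.05 ± 0.49 for colon over crypts.

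Regional levels were compared in the authors' deposited tables of vitamin D treated libraries, because the 3 FPKM tables were scaled separately. In those tables most genes differed between tissues: 61.9% passed for crypts over villi, 64.7% for colon over villi and 56.5% for colon over crypts, so a call alone says little. For crypts over villi 7 members were lower and 1 higher in the authors' deposited tables, where 30.4% of genes were lower and 31.6% higher. For colon over villi 7 were lower and 2 higher (27% and 37.8% of genes), and for colon over crypts 1 was lower and 4 were higher (23.9% and 32.6%).

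Abcc2 had the steepest gradient. In the authors' deposited tables its log2 fold change was -2.24 ± 0.14 (SE) for crypts over villi, -7.09 ± 0.18 for colon over villi and -4.72 ± 0.20 for colon over crypts. Ugt1a6a ran the other way, at 1.21 ± 0.26, 4.49 ± 0.23 and 3.40 ± 0.19 in the same tables. Abcb1a was lowest in crypts: -2.02 ± 0.27 for crypts over villi, 0.91 ± 0.24 for colon over villi and 3.06 ± 0.25 for colon over crypts in the authors' deposited tables. Abcc3 followed the same order with -1.50 ± 0.24 for crypts over villi and 2.10 ± 0.21 for colon over crypts, while colon over villi, 0.47 ± 0.27, did not pass there (adjusted p = 0.115).

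Sult1b1 was highest in villi, with deposited log2 fold changes of -1.78 ± 0.20 for crypts and -2.34 ± 0.13 for colon over villi in the authors' tables. In the authors' deposited tables Ces2c was lowest in crypts, at -1.82 ± 0.22 for crypts over villi and 1.43 ± 0.26 for colon over crypts. Sult1d1 and Abcg2 were lower in both crypts (-1.08 ± 0.26 and -1.31 ± 0.21) and colon (-0.91 ± 0.18 and -1.09 ± 0.28) than in villi in those deposited tables, and colon over crypts did not pass for either (adjusted p = 0.247 and 0.278). Ces2a and Ugt1a1 had the flattest profiles: in the authors' deposited tables Ces2a differed by -0.66 ± 0.31 for crypts over villi, just short of the threshold, and by -0.59 ± 0.23 for colon over villi (adjusted p = 0.0176), and Ugt1a1 by -0.40 ± 0.23 and -0.84 ± 0.20. In FPKM, scaled within each tissue, Ces2a had means of 161, 132 and 150 FPKM in vitamin D colon, crypts and villi, and its colon over villi difference was of the opposite sign, 0.11 with vitamin D and 0.16 with vehicle on the log2 scale.

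**Figure D5:**
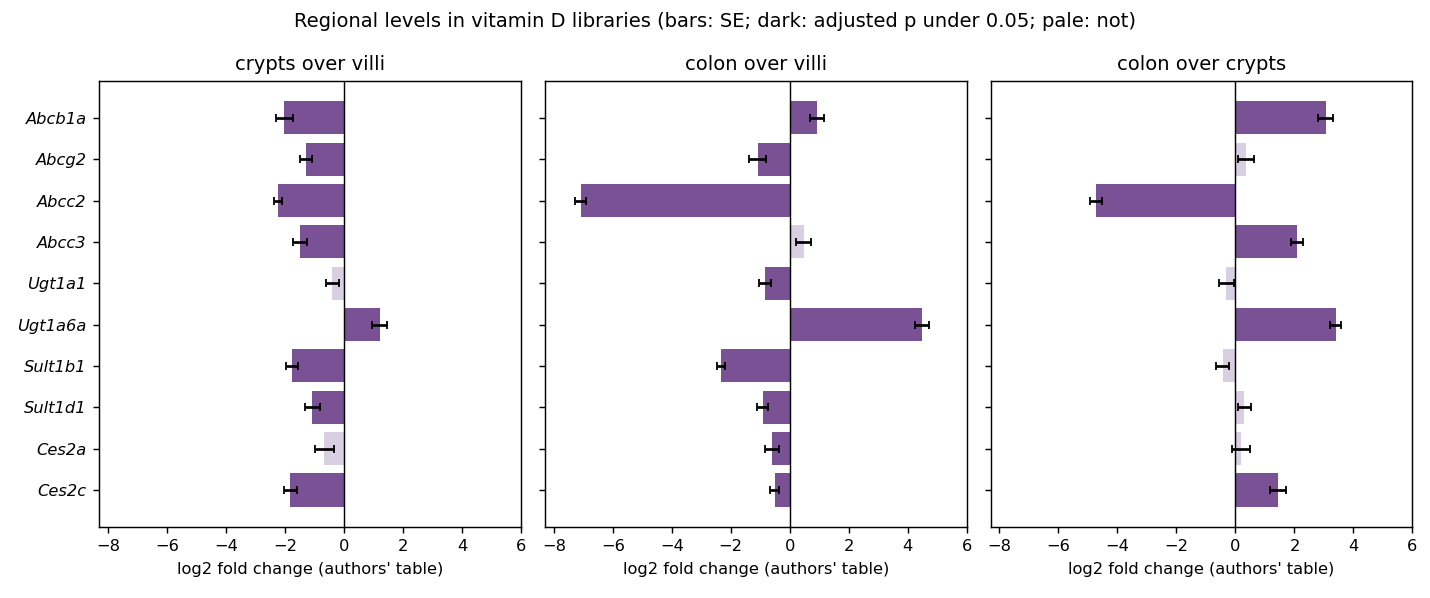
Log2 fold change between tissues in vitamin D libraries, from the authors' deposited tables, with bars for the standard error; dark bars passed an adjusted p of 0.05 and pale bars did not. Abcc2 reaches -7.09 and Ugt1a6a 4.49 for colon over villi.

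The rest of the pathway was read from 7 lists with 116 genes, of which 71 were tested in villi, 73 in crypts and 73 in colon. By limma 1 passed as higher and 1 as lower in villi, 2 as higher in crypts and 0 in colon, beside 2.47%, 1.46% and 0.823% of all genes. An unadjusted p under 0.05 was seen for 8 listed genes in villi, 17 in crypts and 10 in colon, beside 12.2%, 15.3% and 8.05% of all genes. The authors' deposited tables call 5 of 83 listed genes with an adjusted p in villi (3 higher and 2 lower), 10 of 84 in crypts (3 higher and 7 lower) and 3 of 95 in colon (2 higher and 1 lower), where 3.6%, 4.28% and 1.64% of all genes passed. The colon calls in the authors' deposited table were Ugt2b35, a glucuronosyltransferase gene (log2 fold change 0.76, adjusted p = 0.00850), Inmt, a methyltransferase gene (4.01, adjusted p = 0.00244), and Nqo1, the quinone reductase gene (-0.40, adjusted p = 0.0243). Each was also called in another tissue: Ugt2b35 in villi (0.64, adjusted p = 0.0196), and Inmt (5.25, adjusted p = 3.9e-07) and Nqo1 (-0.43, adjusted p = 0.0280) in crypts. Inmt was low, with a mean of 17.8 normalised counts in colon and 13.3 in crypts. Among the other conjugating and hydrolysing enzymes, Ephx1, the microsomal epoxide hydrolase, rose to 31.6 ± 11.3 FPKM with vitamin D in villi, against 10.9 ± 6.17 with vehicle (log2 fold change 1.58 ± 0.31, adjusted p = 0.0128). In crypts it rose to 65.6 ± 26.0 FPKM, against 25.7 ± 5.44 with vehicle (1.27 ± 0.23, adjusted p = 0.0132), and in colon it stood at 15.5 ± 4.76 FPKM with vitamin D and 13.8 ± 2.74 with vehicle (adjusted p = 0.905). Slco2b1, an organic anion uptake carrier, fell in villi to 4.63 ± 1.16 FPKM with vitamin D, against 8.13 ± 1.62 with vehicle (log2 fold change -0.76 ± 0.16, adjusted p = 0.0184; 0.0510 with the pairs as a block). Gata4, the transcription factor that marks the proximal small intestine, rose in crypts to 81.0 ± 6.34 FPKM, against 59.5 ± 8.69 with vehicle (0.45 ± 0.10, adjusted p = 0.0471).

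In limma no gene passed in any tissue among the other UDP-glucuronosyltransferases, sulfotransferases, carboxylesterases or ABC pumps. Some of these listed genes passed in the authors' deposited tables. In villi Ugt2b35 and Ces3b (log2 fold change 2.15, adjusted p = 0.0284, mean of 20.4 normalised counts) were higher, where 3.6% of all genes passed. In crypts Ugp2 (-0.88, adjusted p = 0.00386), Ces1f (-1.28, adjusted p = 0.0351) and Sult1a1 (-1.60, adjusted p = 0.0408) were lower, where 4.28% did. By limma the median log2 fold changes of these lists were -0.07, -0.04, 0.04 and 0.11 in villi (10, 9, 9 and 6 genes tested). All genes tested there had a median of -0.01. In crypts the same lists had medians of -0.44, -0.25, -0.35 and -0.46 beside -0.01 for all genes, moving with the enterocyte markers described above, whose part in these medians was not tested. In colon the medians were 0.11, -0.06, -0.20 and -0.15. The uptake carriers had medians of -0.11 in villi, -0.45 in crypts and -0.26 in colon, the other conjugation and hydrolysis genes -0.01, -0.21 and 0.02, and the sensors and regional regulators 0.12, -0.09 and -0.06.

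Over the 38 libraries, each table centred on its mean, the genes most like Abcc2 were Gm10768 (Pearson's r = 0.936), which lies next to Abcc2 in the RefSeq annotation, the drug-metabolising P450 gene Cyp3a11 (0.915) and the cholesterol carrier gene Npc1l1 (0.878). Those most like Ces2a, after Ugt1a1, were Rnf103 (0.818) and Arl4a (0.811). Abcg2 had looser neighbours: 1110038D17Rik (0.736), Tmem127 (0.720) and Tbc1d22a (0.717). Among the members themselves the closest pair was Ces2c and Sult1b1 (0.837). These values are descriptions over libraries that share tissue, preparation and treatment.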

How the data were processed

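The authors deposited 1 table of FPKM per tissue, a column per library, and tables of their own comparisons. Per the file headers these comparison tables hold log2 fold changes, p-values, a test score and a signal column of mean normalised counts. The submitters' processing notes name kallisto 0.45.0, DESeq 1.28.1, DESeq2 and the build mm9. Each tissue was fitted on its own with limma 3.58.1 (R 4.3.3, trend) after adding 0.5 to the FPKM and taking log2; a gene was tested if 6 or more libraries reached 1 FPKM. The design held treatment alone, p-values were adjusted over all tested genes (Benjamini-Hochberg), and the threshold was 0.05. The pseudocount understates the change of low genes. No count model was run, since the unit is FPKM. Depth was recovered from the spacing of low values: 75.8% to 91.6% of values under 30 reads lay within 0.05 of a whole number.

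The members and lists were chosen with earlier results of these data known. Named genes are all members, the called genes of each list and the 3 genes most like the member with the smallest p in each tissue. The deposited calls among listed genes were named after their values were seen. Every pair of equally numbered libraries correlated above a threshold of 0.1 in villi (lowest 0.102) and crypts (0.119) but not in colon (0.0569). The title numbers were therefore taken as pairs in villi and crypts. In villi the pair numbered 6 joined a female-pattern and a male-pattern library. Promoters come from RefSeq and transcripts from GENCODE M21, both for GRCm38. The test was checked on simulated villus libraries, drawn as independent and with the same spread setting for every gene. The simulation held no sex pattern, name style or pairs, so it does not cover these. Alternatives were other pseudocounts, filters and scalings, covariates, the replicate block and leaving out libraries; those that leave out several libraries or use sex pattern with name style were added after seeing the data.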

Additional observations from a re-analysis of the deposited data

Results flagged for a closer look

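Of 60 groups of values examined (10 genes in 6 groups of libraries), 4 held a library far from the others of its group, and about 1 in 20 groups is expected to do so by chance. Abcc2 stood at 17.5 FPKM in vehicle colon replicate 5, with 5.01 FPKM as the next value. Ces2a stood at 229 FPKM in vehicle colon replicate 6, with 92.7 FPKM as the next value. Both were vehicle colon libraries with high small intestinal transcripts. Vehicle colon replicate 5 had more Fabp1 than replicate 6 (724 and 220 FPKM), and its Ces2a stood at 87.6 FPKM. Vehicle villi had Ces2a between 36.1 and 127 FPKM. The part of small intestinal transcripts in the high Abcc2 and Ces2a values was not tested. Abcg2 stood at 6.52 FPKM in vitamin D crypts replicate 6, with 4.93 FPKM as the next value. Ces2a stood at 269 FPKM in vitamin D crypts replicate 5, with 133 FPKM as the next value.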

How the results depend on the processing

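The count of members called, 0 in each tissue, rose to 1 in villi in several alternatives, given with the share of all genes that passed. These were the replicate block by title numbers or by library names (Ces2a, 3.51% and 3.66%), name style as a covariate (Abcc2, 3.39%) and the authors' deposited table (Abcc2, 3.6%). It rose to 2 (both genes) with sex pattern (3.01%), or sex pattern and name style (4.01%), as covariates. In crypts the title numbers and the library names give the same pairs, so their block is the same fit. The count there was 1 with that block (Ces2a, with 4.14% of all genes), in the deposited table (Abcg2, 4.28%) and without number 4 of both groups (Abcg2, 7.4%). It was 3 with sex pattern and name style as covariates (Abcb1a, Abcg2 and Ces2a), where 7.81% of all genes passed. Leaving out each library in turn gave 0 to 1 in villi, crypts and colon. In colon, where equal numbers were not taken as pairs, the replicate block left Ces2a at adjusted p = 0.235 (title numbers) and 0.243 (library names). Calls over all genes were 341 in villi, 444 in crypts and 147 in colon with the block by title numbers, against 240, 157 and 95 without it. No planned or added alternative turned the sign of Abcc2 or Ces2a in villi, of Abcg2, Abcb1a, Ces2a or Sult1d1 in crypts, or of Ces2a in colon.

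Signs turned in genes that passed no test. In villi they were Abcg2 -0.048, Sult1b1 0.022 and Sult1d1 0.087 with the block by title numbers, Sult1d1 0.038 with name style, Abcb1a -0.24, Abcc3 -0.050, Abcg2 -0.048 and Sult1b1 0.023 in plain-named libraries, Sult1b1 0.047 and Sult1d1 0.020 after quantile normalisation, and Abcg2 -0.026 without vehicle 4. In crypts they were Abcc3 0.024 in plain-named libraries, Abcc2 -0.11 in the deposited table and -0.21 without number 4, and Ces2c 0.24, Sult1b1 0.0088 and Ugt1a6a 0.0020 without vehicle 5 and 6. In colon they were Abcc2 -0.11 with a pseudocount of 1, -0.054 with the block, -0.15 with name style, -1.24 in the deposited table, -0.017 without vitamin D 1 and 2, and -0.11 with both covariates; Abcc3 0.095 with the library-name block, 0.15 in plain-named libraries, 0.018 with sex pattern, 0.0060 in the deposited table, 0.12 without vehicle 5 and 6, 0.032 without vitamin D 1 and 2, and 0.057 with both covariates; and Ugt1a1 -0.00082 without vitamin D 1 and 2. Leaving out 1 library gave log2 fold changes from -0.025 to 0.34 for Abcb1a, -0.12 to 0.19 for Abcc3, -0.096 to 0.18 for Abcg2, -0.076 to 0.023 for Sult1b1 and -0.16 to 0.17 for Sult1d1 in villi, from -0.30 to 0.18 for Abcc2, -0.13 to 0.30 for Ugt1a1 and -0.15 to 0.0086 for Ugt1a6a in crypts, and from -0.30 to 0.61 for Abcc2, -0.13 to 0.095 for Abcc3 and -0.035 to 0.16 for Ugt1a6a in colon. The cause was not tested.

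Between tissues, members with a higher level in crypts than in villi numbered 2 in FPKM, in vitamin D and in vehicle libraries alike, 1 in vehicle FPKM centred on all genes and 1 in the deposited table, which holds vitamin D libraries; those higher in colon than in villi numbered 5, 3 and 3. For colon over villi, Ces2a was 0.11 in vitamin D and 0.16 in vehicle FPKM, but -0.40 and -0.39 centred, and -0.59 in the deposited table of vitamin D libraries. Ces2c was 0.13 and 0.12, but -0.43 in vehicle FPKM centred and -0.52 deposited. Members that differed by sex pattern in colon numbered 2, where 4.51% of all genes passed, and 1 with name style added, where 0.373% did. The lowest deposited mean counts were those of Ugt1a6a in villi (86.2) and crypts (259), Abcc2 in colon (226) and Abcg2 in villi, crypts and colon (329, 217 and 219). The part of depth in the spread of these genes was not tested.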
